A study of Prunus persica with 12 samples.

Results

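A set of 60 genes of peach (Prunus persica) fruit mesocarp, the edible flesh, fell early in the ripening of the cultivar 'Hu Jing Mi Lu' and then stayed level. They were the genes, of 27864 identifiers in all, that were chosen by their measured RPKM in the 'Hu Jing Mi Lu' libraries: a mean of at least 10 RPKM at stage 1, a mean of at least 3 RPKM at stage 2, a fall of at least 2 between these stages, and a difference under 0.5 between stages 2 and 3. Falls and differences here are of x, the log2 of the mean RPKM of a group plus 1. RPKM counts the reads of a gene relative to its length and to the depth of the library. The rule used all 6 'Hu Jing Mi Lu' libraries, so the course of the 60 genes over the stages is a description and carries no test.

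RNA-seq was made from 12 libraries, 2 in each of 6 groups. The flesh of 'Zhong Hua Shou Tao' (ZH2), 'Jin Xiu Huang Tao' (JX2) and 'Yu Lu' (YL2) was sampled at the stage numbered 2, and that of 'Hu Jing Mi Lu' at stages 1, 2 and 3 (HJ1, HJ2 and HJ3). The labels gave ZH2 as hard melting with slight aroma and a Brix, a measure of soluble solids, of 18. JX2 and YL2 were given as soft melting with strong aroma and a Brix of 12 and 14.9. HJ1 was soft melting with slight aroma and no Brix value, and HJ2 and HJ3 were soft melting with strong aroma and a Brix of 12.1 and 12.5. No treatment, age in days or tree was given, and how ripe the fruit of a numbered stage were is not stated, so cultivar and ripeness cannot be told apart between cultivars. Separate fruit or trees are not named for the 2 libraries of any group; a p-value here reflects the spread of these libraries alone, and that spread may be technical. The shallowest library held 1205507 reads (HJ1 replicate 2) and the deepest 3222252 (HJ2 replicate 2), as recovered from the RPKM values.

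Peach is a climacteric fruit: its ripening is driven by a burst of ethylene, and the flesh softens as enzymes take apart the pectin and hemicellulose of the cell wall. In melting flesh this softening goes far, and in the same period aroma compounds such as lactones are made, colour changes, and the expression of genes of fruit growth and of green tissue declines. Which functions the 60 genes have is not given here, since 0 of the 27864 identifiers matched the 26412 genes of the reference table. For the same reason the labelled tissue was not checked against marker genes, and no sequence is printed. Genes are named by identifier, at most 2 in each direction of a comparison.

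In HJ fruit the 60 genes made up a visible part of the RNA at stage 1 and a small part later. At stage 1 their RPKM summed to 9227 ± 6.43 (SD, n = 2 libraries, as for the later stages). At stage 2 the sum was 1368 ± 1.28 RPKM, and at stage 3 it was 1397 ± 111 RPKM. This made 1.17% ± 0.0118 of the RPKM sum of the library in HJ1, 0.180% ± 0.000556 in HJ2 and 0.194% ± 0.0146 in HJ3. The median member stood at 83.0 RPKM in HJ1, 9.76 RPKM in HJ2 and 10.5 RPKM in HJ3. Because the tissue was measured in bulk, fewer cells of a type and less RNA per cell cannot be told apart.

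Members spread widely in level. HJ1 means ran from 16.4 to 762 RPKM, with 22 of the 60 at 100 RPKM or more, and HJ2 means ran from 3.04 to 121 RPKM, with 30 of the 60 under 10 RPKM. In HJ3 the range was 2.16 to 117 RPKM. Reads behind a member at HJ1 ran from 28 to 2530 in replicate 1, with a median of 125, and from 9 to 1569 in replicate 2, with a median of 86. At HJ2 the medians were 24.5 and 32.5 reads and the lowest count was 4 in either library. At HJ3 the medians were 20 and 17 reads, and the lowest counts were 0 and 1. The low side of the pattern was thus measured with far fewer reads than the high side. Between the libraries of a group the coefficient of variation had a median over the members of 10.2% for HJ1, 11.4% for HJ2 and 17.6% for HJ3. For HJ3 it reached 141%, in ppa014312m with 0 and 9.61 RPKM. The level course is thus one of group means and need not hold for each library.

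**Figure D1:**
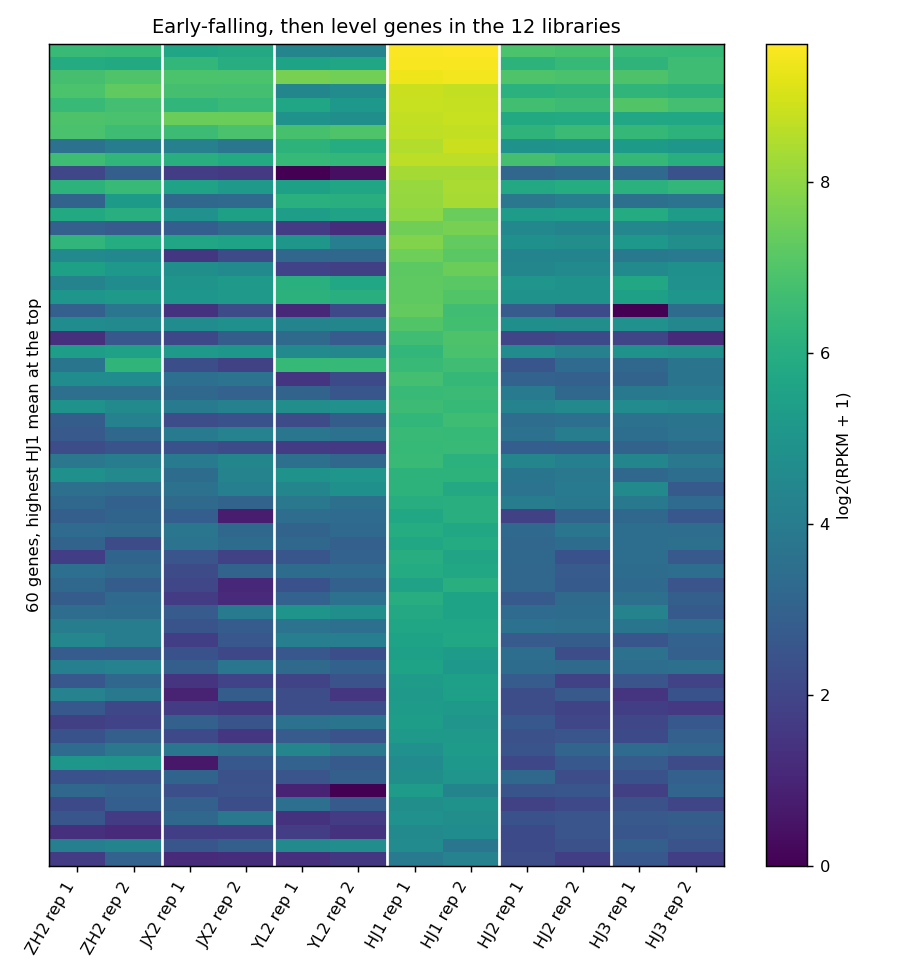
Log2(RPKM + 1) of the 60 genes (rows, highest HJ1 mean at the top) in the 12 libraries (columns, 2 replicates for each group), with colour giving the level. The HJ1 columns are the brightest for nearly all rows, and the HJ2 and HJ3 columns look alike.

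The fall from HJ1 to HJ2 in x had a median difference (HJ2 minus HJ1) of -2.62, and no member fell by less than 2.01, while the median over the 15217 genes tested was -0.22. As a ratio of mean RPKM, HJ1 stood between 4.09 and 35.5 times HJ2, with a median of 6.59. Every HJ1 library lay above every HJ2 and HJ3 library for all 60 members, where this held for 32.9% of all genes tested; the rule used these libraries, so nothing is read from it.

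Both members with the deepest fall were left with few reads in some groups. The gene ppa009421m (1261 bp, as worked back from its RPKM) had 8.12 and 9.60 RPKM in HJ2, against 316 and 314 RPKM in HJ1. It stood at 8.74 and 4.32 RPKM in HJ3, so 1 HJ3 library lay between the HJ2 libraries and the other under both. In YL2 it was lower again, with 0 reads in one library and 1 read in the other, and JX2 had 2.33 and 2.08 RPKM and ZH2 3.16 and 6.59 RPKM. The gene ppa013119m (539 bp) had 3.04 and 3.45 RPKM in HJ2, against 99.4 and 120 RPKM in HJ1, and 3.07 and 1.26 RPKM in HJ3. Its HJ3 level rests on 4 reads over both libraries. Its levels in ZH2 (1.48 and 5.14 RPKM), JX2 (3.27 and 6.08 RPKM) and YL2 (9.05 and 5.82 RPKM) overlapped one another in part, and limma, fitted over all genes, called none of the 3 pairs at an adjusted p under 0.05 (adjusted p from 0.125 to 0.518).

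After stage 2 the members moved little, by the rule, and in both directions. HJ3 had the higher mean for 39 of the 60, the median difference (HJ3 minus HJ2) was 0.13, and 31 of the 60 differed by less than 0.25. The ranges of the HJ2 and HJ3 libraries overlapped for 38 of the 60, and for 37.3% of all genes tested, which the limit on this step also bears on. Over all genes tested the median of this difference was -0.20. The rule limited this step for the members and not for all genes, so nothing is read from the gap. The most abundant member in HJ1, ppa007461m (1413 bp), was named after its values were seen. It had 744 and 781 RPKM in HJ1, 118 and 112 RPKM in HJ2, and 87.4 and 85.7 RPKM in HJ3, so that both HJ3 libraries lay under both HJ2 libraries.

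Genes on either side of a limit of the rule had like values of the limited quantity, though their RPKM could differ widely. The member with the smallest fall had x lower by 2.01, with means of 18.3, 3.79 and 5.51 RPKM in HJ1, HJ2 and HJ3. The nearest gene outside, at -1.98, had 15.3, 3.14 and 2.67 RPKM. On the side of the level step, the last member differed by -0.49 between HJ3 and HJ2 (38.4, 4.63 and 3.02 RPKM over the stages), and the nearest gene outside by -0.52 (276, 43.1 and 29.8 RPKM). The lowest HJ2 mean inside was 3.04 RPKM and the highest outside 2.73 RPKM. Membership depended on scaling: after each library was rescaled by its median ratio, which raised the median difference of all genes by 0.16 both for HJ2 minus HJ1 and for HJ3 minus HJ2, 44 genes met the rule, 36 of them among the 60. The 60 are therefore described as a set under the authors' RPKM.

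Most early fallers did not stay level. In all, 300 genes met the first 3 conditions; 136 of them fell by a further 0.5 or more by HJ3 and 104 rose by 0.5 or more. The median HJ1 mean was 83.0 RPKM for the level genes, 68.1 RPKM for those that fell further and 70.6 RPKM for those that rose. Their median HJ2 means were 9.76, 8.57 and 8.55 RPKM.

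In the other cultivars at stage 2 most of the 60 genes stood well under their HJ1 level. Both libraries of a cultivar lay under both HJ1 libraries for 58 of the 60 members in ZH2, all 60 in JX2 and 59 in YL2. Over all genes tested this held for 54.7% in ZH2, 48.7% in JX2 and 50.9% in YL2, and the members were chosen to be high in HJ1. The exceptions were ppa007207m and ppa014010m in ZH2, and ppa014010m in YL2. A level at least 2 log2 units under HJ1 was found for 40 of the 60 members in ZH2, 52 in JX2 and 46 in YL2, and for 32 in all 3 cultivars. Among all genes tested such a gap was found for 8.88%, 8.39% and 10.4%, and for 5.42% in all 3. The HJ1 level was required to be high by the rule, so these gaps are described and not tested. Summed over the 60 genes, RPKM was 1683 ± 109 in ZH2, 1347 ± 37.5 in JX2 and 1425 ± 46.0 in YL2 (SD, n = 2 each), against 1368 ± 1.28 in HJ2.

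Single genes scattered more than the sums. Relative to HJ2, ZH2 was within 0.5 log2 units for 33 of the 60 members, 0.5 or more above for 20 and 0.5 or more under for 7. Over all genes tested these shares were 55.2% within, 12.8% above and 32.0% under, so the count within was at the share of all genes. For JX2 the counts were 28 within, 8 above and 24 under, beside 62.5%, 11.8% and 25.7% of all genes tested. For YL2 they were 23 within, 16 above and 21 under, beside 49.9%, 17.8% and 32.3%. Of the 60, 6 stayed within 0.5 of HJ2 in all 3 cultivars, where 28.6% of all genes tested did. The median difference from HJ2 was 0.20 for ZH2, -0.26 for JX2 and -0.16 for YL2, beside -0.23, -0.14 and -0.17 over all genes tested. The ZH2 median thus lay above that of all genes, while in JX2 and YL2 the members lay near it. The rule chose the members by their HJ2 libraries, which enter each of these differences. The contrast with all genes is therefore described and not tested. Single libraries moved these medians. The ZH2 median was 0.06 without ZH2 replicate 2. The JX2 median was -0.16 without JX2 replicate 1, -0.36 without JX2 replicate 2, -0.18 without HJ2 replicate 1 and -0.15 without HJ2 replicate 2. The YL2 median was -0.09 without YL2 replicate 2 and turned to 0.03 without HJ2 replicate 1. Rescaling, which raised the median of all genes by 0.20 for ZH2, 0.13 for JX2 and 0.15 for YL2, gave members medians of 0.43, -0.11 and -0.0017.

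**Figure D2:**
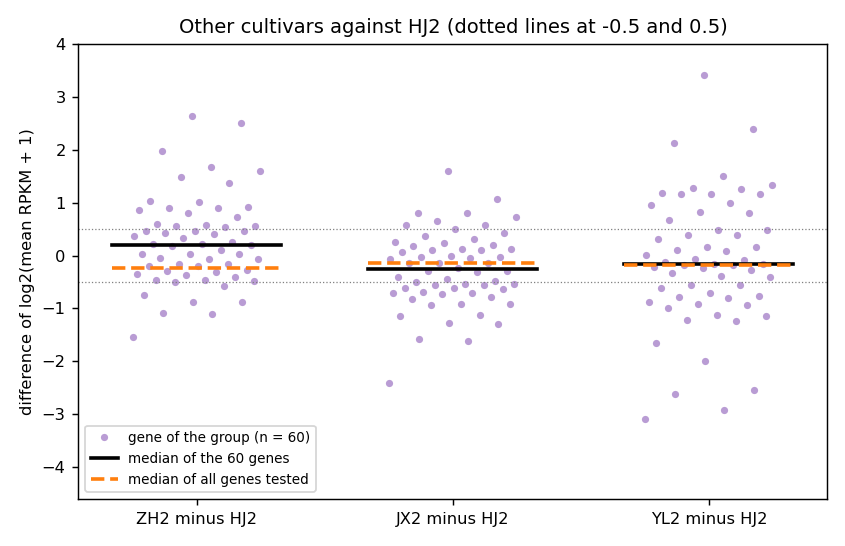
Difference of log2(mean RPKM + 1) between each other cultivar and HJ2 for each of the 60 genes (points, spread sideways only to be seen), with the median of the 60 (black line) and of all 15217 genes tested (dashed line). The ZH2 median of the 60 is 0.20 against -0.23 for all genes, and the YL2 points are the most spread, from -3.09 to 3.41.

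The spread around HJ2 was widest in YL2. The absolute difference from HJ2 had a median of 0.47 over the members in ZH2, 0.54 in JX2 and 0.79 in YL2, beside 0.44, 0.37 and 0.50 over all genes tested. In YL2, 11 members were at least 1 log2 unit above HJ2 and 10 at least 1 under it. Among all genes tested 8.06% were at least that far above and 15.04% at least that far under. The count under was thus near the share of all genes, and the count above exceeded it. Of the 136 that fell further in HJ, the median difference from HJ2 was -1.49 in ZH2, -1.29 in JX2 and -1.90 in YL2. Of the 104 that rose, it was 1.79, 0.62 and 1.30. All these differences share the HJ2 libraries with the HJ3 step, so they are set side by side and their likeness is not a result.

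A few members stood far above HJ2 in another cultivar. The gene ppa014010m (597 bp) had 23.1 and 25 RPKM in YL2, against 3.43 and 4.16 RPKM in HJ2, and was the member whose YL2 mean exceeded that of HJ1 (24.1 and 12.5 RPKM). ZH2 also held it high, at 16.7 and 19.1 RPKM, and JX2 did not, at 4.93 and 6.59 RPKM. The gene ppa007207m (1137 bp) had 32.6 and 30.4 RPKM in ZH2, against 3.24 and 5.19 RPKM in HJ2, a difference of 2.64 log2 units. Its ZH2 mean exceeded that of HJ1 (24.0 and 33.6 RPKM), whose libraries straddled both ZH2 values. The gene ppa018214m (741 bp) had 85.0 and 84.7 RPKM in YL2, against 4.98 and 9.21 RPKM in HJ2, 3.41 log2 units higher and close to HJ1 (90.3 and 99.6 RPKM). In ZH2 the same gene had 12.4 RPKM in one library and 77.5 RPKM in the other, so its ZH2 mean stands for neither.

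JX2 had smaller excesses. The gene ppa010456m (1275 bp) had 175 and 173 RPKM in JX2, against 55.9 and 58.4 RPKM in HJ2, a difference of 1.59 log2 units. This was under its HJ1 level of 420 and 441 RPKM. The gene ppa010208m (1224 bp) had 8.17 and 13.4 RPKM in JX2, against 4.35 and 4.82 RPKM in HJ2. These were the 2 members at least 1 log2 unit above HJ2 in JX2. Of all genes tested 4.28% were, so this count was not above the share of all genes.

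Other members stood at lower levels than HJ2 in another cultivar. The gene ppa005698m (1666 bp) was low in each of them, with 6.71 and 5.82 RPKM in ZH2, 6.36 and 9.05 RPKM in JX2 and 2.20 and 1.41 RPKM in YL2, against 21.1 and 19.0 RPKM in HJ2. No library of the other cultivars reached either HJ2 library, and HJ3 matched HJ2 at 20.8 and 19.2 RPKM. The gene ppa006726m (1229 bp) was low in JX2, at 1.92 and 3.74 RPKM, against 19.3 and 19.2 RPKM in HJ2, a difference of -2.41 log2 units. In ZH2 it was near HJ2, at 23.1 and 21.4 RPKM. The gene ppa004639m (1713 bp) was low in YL2, at 2.85 and 2.52 RPKM, against 20.1 and 22.8 RPKM in HJ2. In ZH2 the gene ppa013341m (723 bp) stood at 11 and 15.8 RPKM, against 28.9 and 30.0 RPKM in HJ2.

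The libraries of ZH2, JX2 and YL2 were not used by the rule, so differences among these 3 cultivars were tested. Limma was run on log2(RPKM + 1) over all 15217 genes with Benjamini-Hochberg adjustment, and calls had adjusted p under 0.05. The fit also held the HJ libraries, which the rule did use. The spread behind each SE and p is therefore not independent of the rule. A fit of the 3 cultivars alone called 7 members for ZH2 against JX2, 17 for ZH2 against YL2 and 19 for JX2 against YL2. Counts below are from the fit of all libraries unless stated. All 60 members were among the genes tested. At least 1 of the 3 pairs was called for 39 of the 60 members , where 34.3% of all genes tested were called. The remaining 21 were called in none. Shares over the 60 are set beside shares over all genes as a description. The 60 had HJ levels above a limit by the rule, which all genes tested did not.

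ZH2 exceeded JX2 for most of the members that differed. Of the 60, 21 were called, 17 higher and 4 lower in ZH2, where 16.6% of all genes tested were called, 7.64% higher and 8.92% lower. The median log2 difference was 0.54 over the members and -0.04 over all genes tested. The gene ppa007207m had 32.6 and 30.4 RPKM in ZH2, against 0.518 and 5.19 RPKM in JX2, and rose by a limma log2 difference of 3.41 ± 0.521 (SE, adjusted p = 0.00119). Its JX2 level rests on 10 reads, 1 of them in replicate 1, which gave 11.5 times as many in ZH2 after correction for depth (95% interval of the counts 6.14 to 24.4). The gene ppa018214m was also called higher, by 2.93 ± 0.607 (adjusted p = 0.0071), on 12.4 and 77.5 RPKM in ZH2, against 3.97 and 2.66 RPKM in JX2. The groups did not overlap, but the ZH2 libraries lay far apart: the log2 difference was 4.2 without ZH2 replicate 1 and 1.65 without ZH2 replicate 2.

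Among the 4 lower calls, ppa010208m had 4.89 and 2.26 RPKM in ZH2, against 8.17 and 13.4 RPKM in JX2 (log2 difference -1.39 ± 0.323 SE, limma adjusted p = 0.0131). The gene ppa009210m (1044 bp) had 5.35 and 8.29 RPKM in ZH2, against 14.1 and 18.2 RPKM in JX2 (-1.15 ± 0.232, adjusted p = 0.00618). Both rest on few reads, 23 and 39 over the ZH2 libraries. All 4 named calls were lost when the fit held only the ZH2, JX2 and YL2 libraries, at adjusted p from 0.0540 (ppa007207m) to 0.111 (ppa018214m). Some also hung on 1 library: ppa018214m was lost without JX2 replicate 2 (0.0504), ppa010208m without ZH2 replicate 2 (0.117) or JX2 replicate 2 (0.0993), and ppa009210m without ZH2 replicate 1 (0.0641) or JX2 replicate 2 (0.0514). Over all alternatives the adjusted p ran from 2.86e-05 to 0.0540 for ppa007207m, from 0.000121 to 0.111 for ppa018214m, from 0.00467 to 0.117 for ppa010208m and from 0.00562 to 0.0641 for ppa009210m. In that smaller fit 7 of the 60 members were called, 6 of them higher, where 12.1% of all genes tested were, so the members' share was no longer above that of all genes. Without ZH2 replicate 2 the count was 11, with 9 higher, where 9.54% of all genes tested were called.

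ZH2 and YL2 differed for 25 of the 60, 17 higher and 8 lower in ZH2, where 18.6% of all genes tested were called, 9.10% higher and 9.47% lower. The median log2 difference was 0.21 over the members and -0.04 over all genes tested. The gene ppa004639m had 42.6 and 34.1 RPKM in ZH2, against 2.85 and 2.52 RPKM in YL2, and rose by 3.41 ± 0.178 (SE, limma adjusted p = 3.31e-07), a ratio of mean RPKM of 14.3. The gene ppa023632m (228 bp) had 24.5 and 24.3 RPKM in ZH2, against 1.78 and 3.44 RPKM in YL2 (2.85 ± 0.27, limma adjusted p = 2.70e-05). This short gene had 3 reads in YL2, and 30 in ZH2, 9.29 times as many after correction for depth (95% interval of the counts 2.89 to 47.6).

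In the other direction, ppa013341m had 11 and 15.8 RPKM in ZH2, against 73.6 and 61.3 RPKM in YL2, and fell by 2.26 on the log2 scale (SE 0.198, limma adjusted p = 1.44e-05). These 3 calls held under each of the 10 alternatives run for them. The gene ppa005514m (1561 bp) had 7.41 and 36.6 RPKM in ZH2, against 67.4 and 66.1 RPKM in YL2 (-1.93 ± 0.489, limma adjusted p = 0.0176). Its ZH2 libraries also lay far apart, and as for ppa018214m replicate 2 was the higher. This call was lost without either YL2 library (adjusted p = 0.0906 and 0.0875) and in the fit of the 3 cultivars alone (0.173), in a range of 2.59e-05 to 0.173 over all alternatives. The log2 difference was -3.01 without ZH2 replicate 2 and -0.85 without ZH2 replicate 1.

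Of the 3 pairs, JX2 and YL2 had the most calls, in near equal numbers on either side. Of the 60, 31 were called, 15 higher and 16 lower in JX2, where 23.9% of all genes tested were called, 12.5% higher and 11.5% lower. The median log2 difference was -0.24 over the members and 0.00 over all genes tested, and by sign alone 25 of the 60 were higher in JX2. The gene ppa004639m had 26.8 and 22.6 RPKM in JX2, against 2.85 and 2.52 RPKM in YL2 (2.80 ± 0.178 SE, limma adjusted p = 1.27e-06). All 3 pairs were called for this gene, with ZH2 also above JX2 by a smaller 0.61 ± 0.178 (SE, limma adjusted p = 0.0378). The gene ppa010456m had 175 and 173 RPKM in JX2, against 30.0 and 26.4 RPKM in YL2 (2.59 ± 0.0995, limma adjusted p = 5.14e-08), a ratio of mean RPKM of 6.17. Its ZH2 libraries, at 121 and 115 RPKM, lay between.

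Both members with the largest lower calls in JX2 were high in YL2. The gene ppa018214m had 3.97 and 2.66 RPKM in JX2, against 85.0 and 84.7 RPKM in YL2, and fell by 4.33 on the log2 scale (SE 0.607, limma adjusted p = 0.000399). Its JX2 level rests on 8 reads, against 315 in YL2, a ratio of 0.0395 after correction for depth (95% interval of the counts 0.0169 to 0.0787). The gene ppa005514m had 8.29 and 8.82 RPKM in JX2, against 67.4 and 66.1 RPKM in YL2 (-2.83 ± 0.489, limma adjusted p = 0.00165). This call was lost in the fit of the 3 cultivars alone (adjusted p = 0.0664, in a range of 8.57e-05 to 0.0664 over all alternatives). In that fit 19 members were called, where 19.5% of all genes tested were, and 19 were called without YL2 replicate 2, where 15.5% were.

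**Figure D3:**
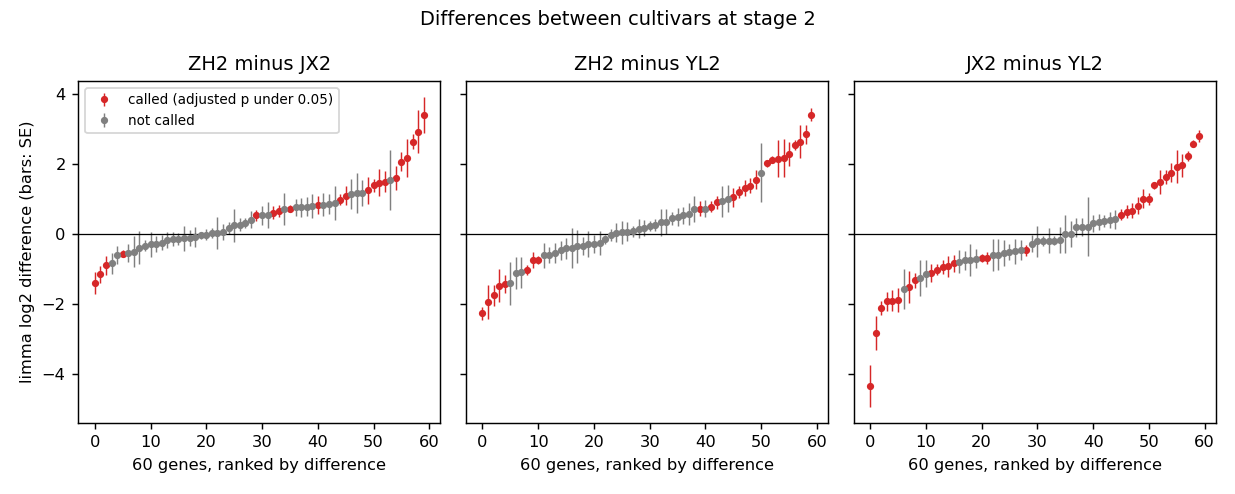
Limma log2 difference (points, with SE bars) of the 60 genes for ZH2 minus JX2, ZH2 minus YL2 and JX2 minus YL2, ranked within each panel, with genes called at an adjusted p under 0.05 in red. Red points lie mostly above 0 for ZH2 minus JX2 (17 higher, 4 lower) and on both sides for JX2 minus YL2 (15 higher, 16 lower).

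Calls against both other cultivars were counted for each gene. ZH2 was called higher than both JX2 and YL2 for 7 of the 60 members and lower than both for 1, beside 3.12% and 2.73% of all genes tested. JX2 was called higher than both of the others for 2 members and lower for 9, beside 4.62% and 3.53%. YL2 was called higher than both for 7 members and lower for 12, beside 5.57% and 5.17%. By mean level alone, ZH2 was the highest of the 3 for 29 members, JX2 for 11 and YL2 for 20. Over all genes tested these shares were 24.8% for ZH2, 37.7% for JX2 and 37.5% for YL2. The lowest was ZH2 for 15 members, JX2 for 24 and YL2 for 21, beside 34.1%, 30.6% and 35.3% of all genes tested, so that YL2 was lowest at about the share of all genes.

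Calls among the other early fallers give a measure of how far the 60 differ from genes chosen in a like way. Between ZH2 and JX2, 34.6% of the 136 genes that fell further were called (23 higher, 24 lower) and 63.5% of the 104 that rose (62 higher, 4 lower), beside 35.0% of the 60. Between ZH2 and YL2 the shares were 39.7% (42 higher, 12 lower in ZH2), 47.1% (32 higher, 17 lower) and 41.7%. Between JX2 and YL2 they were 41.2% (44 higher, 12 lower in JX2), 68.3% (14 higher, 57 lower) and 51.7% (15 higher, 16 lower). The other sets thus went opposite ways between JX2 and YL2. The share of the 60 lay between those of the other sets in each pair, and no difference between the sets was tested. A limit set after the data had been seen kept the 10173 genes whose mean over ZH2, JX2 and YL2 reached 3 RPKM. Of these, 21.3% were called between ZH2 and JX2, 24.1% between ZH2 and YL2 and 31.2% between JX2 and YL2. Of the 57 members over that limit, 21, 24 and 30 were called.

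**Figure D4:**
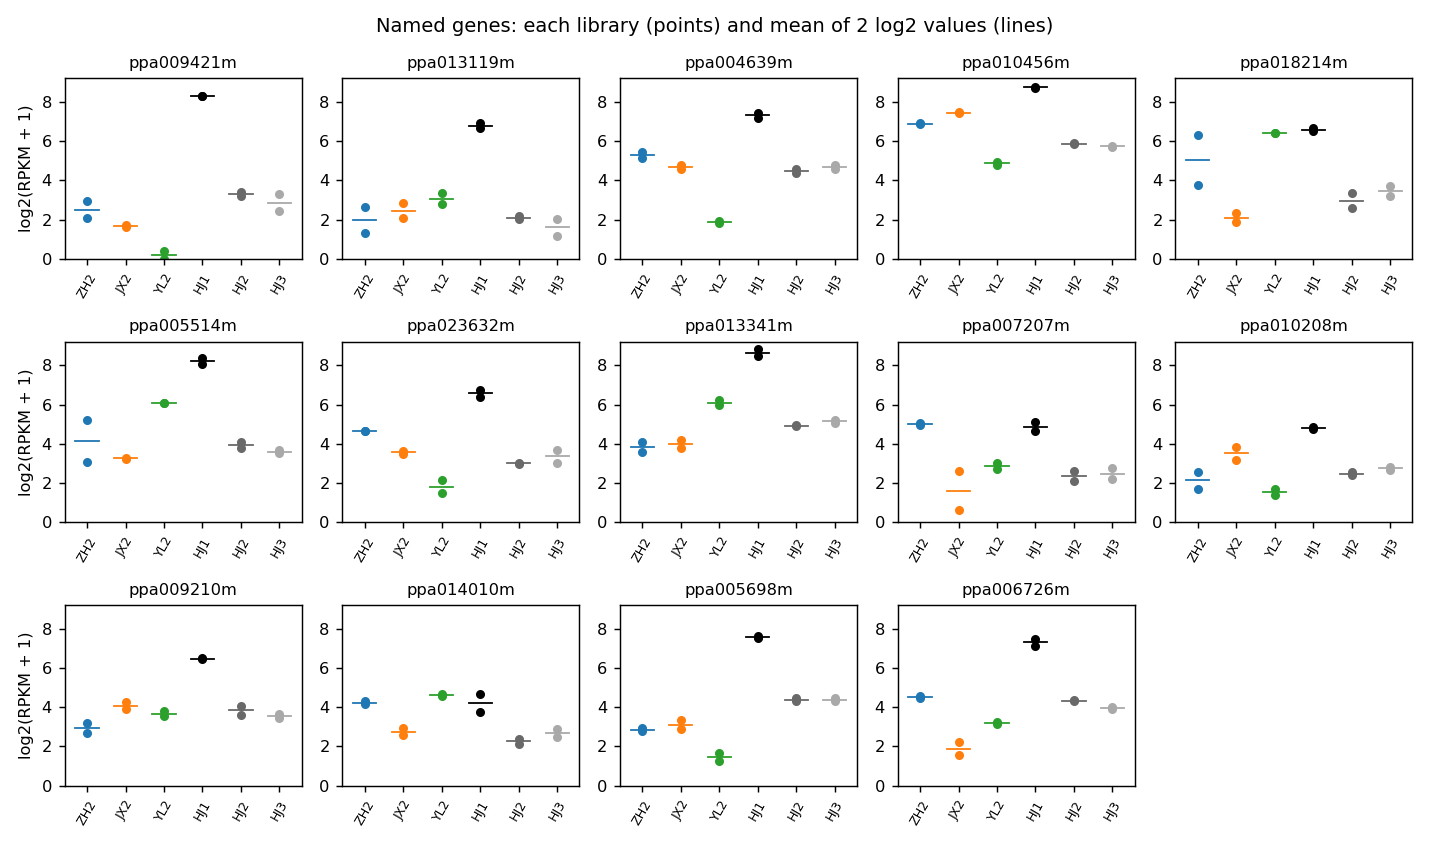
Log2(RPKM + 1) of the 14 genes named by the rule in each library (points) by group, with lines at the mean of the 2 log2 values. All 14 are high in HJ1 and low in HJ2 and HJ3, while the other cultivars differ from gene to gene: ppa004639m is low in YL2 (2.85 and 2.52 RPKM), and ppa007207m is high in ZH2 (32.6 and 30.4 RPKM).

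The rule did not use gene length. The members' length, worked back from RPKM, had a median of 1086.5 bp and ran from 228 to 2682 bp, beside a median of 1299 bp over all genes tested. All 60 identifiers began with ppa, as do 26110 of the 27864 in the files. Reads were found in all 12 libraries for 57 of the 60.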

How the data were processed

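The authors deposited RPKM values, per the file headers, in a table for each of the 12 libraries with the same 27864 identifiers. Per the submitters' processing notes, which give neither role nor order, the tools include HTSeq 0.5.3, DESeq 1.10.1, TopHat 1.4.0 and Bowtie 0.12.8. How strand and multiply matching reads were counted is not given in the sources used here, nor are the build, annotation and filters, so genes that share reads with a copy or overlap a neighbour are uncertain.

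Libraries were grouped by their titles. RPKM values were whole multiples of a single read in each gene and library, from which depth, reads and gene length were worked back (Python 3.11.15, numpy 2.4.6, pandas 2.3.3); 100% of the values of 17316 genes came out whole within 0.001 reads. Depth ran from 1205507 to 3222252 reads, and counting intervals cover counting error only.

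Tests used limma 3.58.1 (R 4.3.3) on log2(RPKM + 1) with the variance following the mean. Genes with at least 1 RPKM in at least 2 libraries were kept (15217), all 12 libraries entered a single fit with 6 residual degrees of freedom, and p-values were adjusted over all genes. A fold change on this scale understates the change of low genes. The recovery of reads and the fit were run on simulated data. For the fit, all genes were drawn with the same spread beyond counting error, and only genes above a set level were changed. The outcome is not given here, so nothing about the members is read from it. The members, lists and tests were chosen with earlier results of these data known. Planned searches by product name were not run, because 0 identifiers matched the reference table (assembly Prunus_persica_NCBIv2). Named genes were the 2 members with the largest fall, up to 2 called members in each direction of a tested pair (libraries not overlapping, higher mean at least 10 RPKM, largest difference), and the 2 highest and 2 lowest of each cultivar against HJ2 with a higher mean of at least 10 RPKM. Alternatives were a pseudocount of 0.1, no filter, median-ratio rescaling, a replicate block, a fit of 3 groups, limma voom on whole reads, other limits of the rule and leaving out each library.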

Additional observations from a re-analysis of the deposited data

How the results depend on the processing

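The number of genes that met the rule was 60. It was 31 with the level step limited to 0.25 and 106 with it limited to 1, 141 with a fall of 1.5 or more and 33 with a fall of 2.5 or more. Leaving out each HJ library in turn gave 49 to 65 genes, of which 45 to 56 were among the 60. A pseudocount of 0.1 gave 64.

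Members called between cultivars numbered 21 for ZH2 against JX2, 25 for ZH2 against YL2 and 31 for JX2 against YL2. The fit of the 3 groups alone gave 7, 17 and 19, where 12.1%, 15.3% and 19.5% of all genes tested were called. In the main fit 16.6%, 18.6% and 23.9% of all genes tested were called. The smaller fit has fewer libraries, and why its counts were lower was not tested. Leaving out a library gave 11 to 15, 18 to 21 and 19 to 25. Without the filter, at a pseudocount of 0.1, after rescaling, under voom and among genes with a mean of at least 3 RPKM, the counts lay within 1.5 times the main ones. The shares of all genes called moved as well. With a library of the pair left out, these shares lay under those of the main fit in each of the 3 pairs. The lower counts of members there thus went with fewer calls over all genes. The shares were 13.0%, 14.5% and 18.8% without the filter and 16.1%, 17.8% and 23.3% at a pseudocount of 0.1. After rescaling they were 17.2%, 19.1% and 24.3%, and under voom 19.1%, 24.7% and 25.4%. Among genes with a mean of at least 3 RPKM they were 21.3%, 24.1% and 31.2%. The replicate numbers pair nothing in the labels, and deviations of same-numbered libraries correlated at -0.067 to 0.050 over 15 pairs of groups. With the replicate block the counts were 19, 24 and 29, where 15.9%, 18.0% and 23.2% of all genes tested were called.

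The median difference from HJ2 moved by more than its spread between libraries in some settings; the cause was not tested. Rescaling gave ZH2 a median of 0.43, JX2 -0.11 and YL2 -0.0017. Leaving out a library gave ZH2 0.057 to 0.23, JX2 -0.36 to -0.15 and YL2 -0.20 to 0.031. The 12 named values in the tested pairs kept their direction in all 120 alternative values. They were chosen as called, with libraries that did not overlap. The direction was thus fixed beforehand for most alternatives, and nothing is read from it. Depth limits the low side most: a gene of 1 kb with 3 reads has 0.931 RPKM at the greatest depth here and 2.49 RPKM at the smallest.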
